A study of Mus musculus with 8 samples.

Results

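The IL-6 family of cytokines was followed in cultured skin fibroblasts of Nd2-mutant and control mice. All probes whose gene symbol was Il6, Lif, Il11, Clcf1, Il6st, Il6ra, Lifr, Osmr, Stat3 or Socs3 were taken. These were 18 of the 25697 probes on the array and 10 of its 18138 gene symbols. Each of 8 mice gave the RNA for 1 Illumina array. 4 of these mice were of the Nd2-mutant strain C57BL/6J-mtALR/LtJ (male mice 28 and 32, female mice 34 and 35). The other 4 were of the control strain C57BL/6J-mtAKR/J (male mice 16 and 17, female mice 15 and 37). All mice were 12 months of age. Both strains are conplastic: repeated backcrossing put a donor's mitochondrial genome into cells with the C57BL/6J nuclear genome. The mutant strain differs from the control in a mitochondrial gene, the Nd2 subunit of NADH dehydrogenase, with methionine in place of leucine. As each strain is its own breeding line, the Nd2 difference and any other difference between the lines cannot be told apart. The cells were primary fibroblasts grown out of skin in DMEM with fetal calf serum, and the arrays hold no drug-treated group.

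IL-6 family cytokines signal through gp130, the shared receptor chain encoded by Il6st. Each ligand also needs a further receptor chain, such as Il6ra for IL-6, Lifr for LIF and Osmr for oncostatin M. Some of these chains, Lifr among them, serve several ligands. Receptor binding activates JAK kinases bound to gp130, which phosphorylate STAT3. STAT3 then enters the nucleus and induces, among others, Socs3, which blocks the receptor and closes a feedback loop. IL-6 is also a main component of the senescence-associated secretory phenotype, the set of factors that senescent fibroblasts release. The comparison asks whether transcripts of this pathway differed between the strains.

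The promoters of Il6 and Lif are shown because the probes of these ligands had the lowest values of all members in Nd2-mutant relative to control fibroblasts. Each line gives the 250 bases before the RefSeq transcription start, 5′ to 3′, on the plus strand of GRCm38.p6. Il6 lies at chr5:30012864-30013113 and Lif at chr11:4257318-4257567. Capitals mark matches to 4 motifs searched on both strands, and none of the matches overlap.
Il6: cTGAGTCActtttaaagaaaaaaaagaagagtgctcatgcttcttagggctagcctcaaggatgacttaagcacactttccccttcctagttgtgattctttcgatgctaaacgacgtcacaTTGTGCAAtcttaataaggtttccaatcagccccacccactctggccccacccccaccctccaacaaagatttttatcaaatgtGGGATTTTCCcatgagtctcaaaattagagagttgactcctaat
Lif: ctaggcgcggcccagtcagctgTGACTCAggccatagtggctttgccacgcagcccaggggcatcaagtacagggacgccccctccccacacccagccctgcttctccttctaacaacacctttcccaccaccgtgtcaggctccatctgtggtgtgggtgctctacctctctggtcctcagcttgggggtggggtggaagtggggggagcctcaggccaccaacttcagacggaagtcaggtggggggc
In Il6, the capitals are an AP-1 match (TGAGTCA, 249 to 243 bases before the start), a C/EBP match read on the minus strand (TTGTGCAA, 128 to 121 bases before it) and an NF-kB match (GGGATTTTCC, 44 to 35 bases before it). In Lif, they are an AP-1 match (TGACTCA, 228 to 222 bases before the start). An AP-1 match (TGAGTCA) also lay 98 to 92 bases before one of the RefSeq starts of Il11. The only STAT match among the members was TTCTTAGAA, 154 to 146 bases before one RefSeq start of Socs3. Of the 32851 promoters in the table, 6.75% held the AP-1 letters TGANTCA, 9.56% the C/EBP letters TTGCNNAA, 0.356% the NF-kB motif and 7.02% the STAT letters TTCNNNGAA in this window. Clcf1 was not in the promoter table. A match to the letters describes the sequence and is no evidence of binding.

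The cells carried the markers of their label. All 9 fibroblast markers with a probe, among them Col1a1, Pdgfra and Thy1, were detected on all 8 arrays. Their summed intensity was 35180 to 40640 in Nd2-mutant and 29522 to 43212 in control mice. 4 of 4 T cell markers were detected on no array. Of 10 macrophage markers, 2 were detected on all 8 arrays and 2, Ptprc and Itgam, on none. Their summed intensity was 264 to 1614 in Nd2-mutant and 214 to 559 in control mice, and the highest sum was that of Nd2-mutant mouse 35. For endothelial cells, 3 of 6 markers were detected on all 8 arrays and 1 on none, with sums of 126 to 235 in Nd2-mutant and 206 to 508 in control mice. Emcn, an endothelial sialomucin, was lower in every Nd2-mutant mouse than in any control mouse (50.9 to 124 against 125 to 272). Tek, of the same list, overlapped, and its highest value was that of Nd2-mutant mouse 35 (91.2). The fibroblast marker Lum was higher in every Nd2-mutant mouse than in any control mouse (212 to 265 against 53.1 to 201). Of all tested probes, 4.37% did not overlap between the strains. For melanocytes, 1 of 5 markers was detected on all 8 arrays and 3 on none, with sums of 48.6 to 129 and 73.8 to 209. For Schwann cells, 1 of 3 markers was detected on all 8 arrays and 2 on none, with sums of 18.1 to 45.0 and 37.6 to 130. For smooth muscle cells and pericytes, 4 of 6 markers were detected on all 8 arrays and 2, Rgs5 and Cnn1, on none. The sums were 10184 to 14038 and 11809 to 14363. Acta2 dominated them, with 10063 to 13935 over all mice, whereas Myh11, Des and Cspg4 reached at most 227. Control mouse 15, which also had the highest Lif intensity of all mice, had the highest sum in the fibroblast list and in each of these last 4 lists. The part of these cells in the results was not tested. The array of control mouse 15 stood apart, with a mean correlation of 0.934 with the others against 0.963 to 0.974 for the remaining arrays. Detected probes numbered 10973 to 11350 per array in Nd2-mutant and 10663 to 10837 in control mice. In RNA from a whole culture, fewer expressing cells and less RNA per cell cannot be told apart.

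Il6, Lif and Il11 had lower mean intensities in Nd2-mutant than in control fibroblasts. The receptor chains Il6st and Osmr and the feedback inhibitor Socs3 differed by 0.12 or less on the log2 scale. 1 of 3 Stat3 probes was higher in every Nd2-mutant mouse than in any control mouse. None of these differences passed the threshold after adjustment over all probes. A probe was tested if its detection p-value was under 0.01 on all 4 arrays of at least 1 strain. 10 member probes of 7 genes passed this filter. 8 did not, and Clcf1, Il6ra and Lifr had no tested probe. Intensities are the deposited normalized values. Differences are Nd2-mutant minus control on the scale log2(intensity + 16), which understates the change of dim probes. With limma and Benjamini-Hochberg adjustment over all 10414 tested probes, 0 member probes had an adjusted p under 0.05, and so did 0% of all tested probes. At an unadjusted p under 0.05 in limma there were 3 of 10 member probes, 1 higher and 2 lower, against 7.63% of all tested probes. In 1 of 10 member probes, higher in the mutants, the strains did not overlap, against 4.37% of all tested probes (2.24% higher and 2.13% lower). Of the 10 probes 4 were higher and 6 lower, with a median difference of -0.12. The median over all tested probes was 0.00, and the middle 95% lay between -0.52 and 0.62. Probes of the same gene share its transcripts, so these counts are not counts of independent genes.

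**Figure D1:**
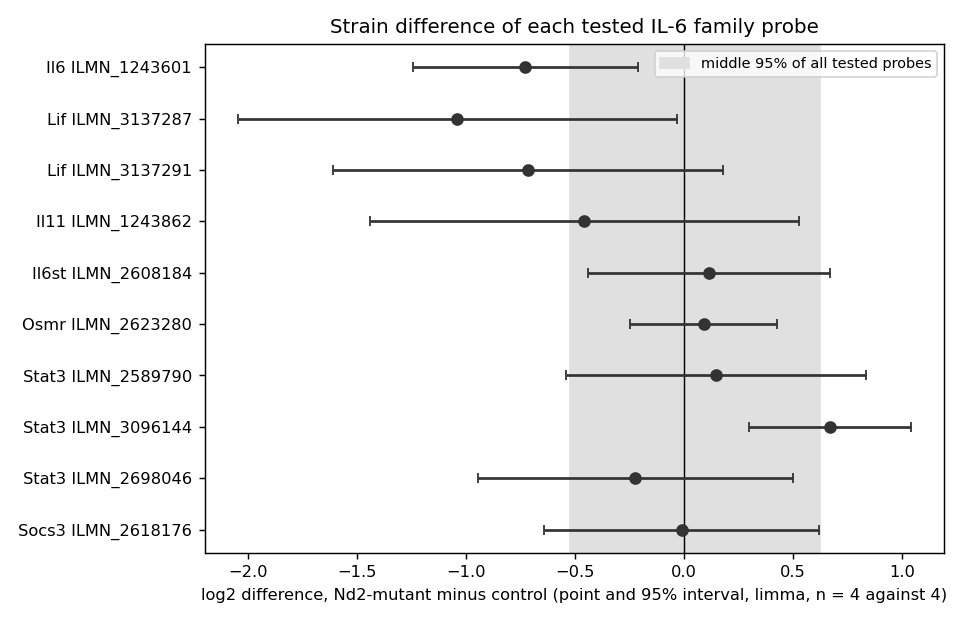
Difference between the strains for each of the 10 tested IL-6 family probes, as Nd2-mutant minus control on the log2(intensity + 16) scale, with 95% confidence intervals from limma. The shaded band holds the middle 95% of all tested probes, from -0.52 to 0.62. Il6 (-0.73), both Lif probes (-1.04 and -0.71) and 1 Stat3 probe (0.67) lie outside it.

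Il6 encodes IL-6 itself. Its intensity was 44.3, 100.02, 104.0 and 59.8 in Nd2-mutant mice 28, 32, 34 and 35. It was 139.6, 102.1, 151.4 and 138.8 in control mice 15, 16, 17 and 37. The strains overlapped by a single pair, since Nd2-mutant mouse 34 (104.0) lay above control mouse 16 (102.1). The means were 77.0 ± 29.5 in Nd2-mutant and 133 ± 21.4 in control mice (SD, n = 4 each). The difference was -0.73 with a standard error of 0.23 and a 95% confidence interval from -1.24 to -0.21. It was not past the threshold, with an adjusted p of 0.639 in limma, an unadjusted p of 0.0103 in limma and p = 0.0571 in the exact permutation test. That test, 2-sided over 70 arrangements of 4 against 4 mice, cannot give a p below 0.0286. The difference was -0.75 in male and -0.70 in female mice. Of all tested probes, 0.970% had a lower difference than Il6. Il6 was also listed by the study among its downregulated genes from the same arrays, so its direction here is not independent evidence. Nd2-mutant mouse 35, with the highest sum of macrophage markers, had an Il6 intensity of 59.8. Without this mouse the Il6 difference was -0.65, and without control mouse 15 it was -0.70. Without both it was -0.62 (unadjusted p = 0.0509 in limma). With each mouse left out in turn, it ranged from -0.87 without Nd2-mutant mouse 34 to -0.54 without Nd2-mutant mouse 28.

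Lif encodes leukemia inhibitory factor, which binds Lifr together with gp130. Its brighter probe, ILMN_3137287, had intensities of 114.1, 313.7, 82.8 and 57.7 in Nd2-mutant mice 28, 32, 34 and 35. The control mice 15, 16, 17 and 37 gave 473.0, 167.9, 312.8 and 171.7. Nd2-mutant mouse 32 lay among the control mice, whereas the other mutants lay below all of them. The means were 142 ± 117 and 281 ± 144 (SD, n = 4 each). The difference was -1.04 with a standard error of 0.45 and a 95% confidence interval from -2.04 to -0.03. It had the lowest value of the member probes, and 0.269% of all tested probes had a lower one. The adjusted p was 0.639 and the unadjusted p 0.0443 in limma, and the exact permutation test gave p = 0.143. The value depended on single mice: it was -1.47 without Nd2-mutant mouse 32, -0.75 without Nd2-mutant mouse 35, -0.76 without control mouse 15, and -0.47 without both of the last-named mice. It was -0.25 in male and -1.83 in female mice, but the interaction of strain and sex was not past the threshold (adjusted p = 0.9999 and unadjusted p = 0.0771 in limma). An unadjusted p under 0.05 for this interaction was found for 1.77% of all tested probes, an adjusted one for 0.0096%, and neither for any member probe.

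The sum of the keratinocyte markers, which Krt14 dominated, varied between the arrays in an order like that of Lif. This sum, over 7 genes, was 325, 1170, 192 and 221 in Nd2-mutant mice 28, 32, 34 and 35 and 940, 436, 655 and 318 in control mice 15, 16, 17 and 37. 2 of the 7, Krt14 and Krt10, were detected on all 8 arrays, Krt5 on 1 and Krt2-1 on none. Krt14, a keratin of basal keratinocytes, gave 166, 1007, 38.3 and 77.9 in these Nd2-mutant mice and 812, 313, 498 and 199 in these control mice. Krt10, a keratin of differentiated keratinocytes, did not follow this order, with 131, 111, 150 and 131 in these Nd2-mutant mice and 90.9, 112, 116 and 103 in these control mice. Nd2-mutant mouse 32 and control mice 15 and 17 had the highest sums and the highest Lif intensities, and Nd2-mutant mice 34 and 35 the lowest of both. The part of these cells in the Lif values was not tested.

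The second Lif probe, ILMN_3137291, is annotated to the same transcript variant 2. It gave 77.7, 183.4, 68.2 and 43.5 in Nd2-mutant mice 28, 32, 34 and 35. It gave 232.5, 72.2, 216.6 and 116.8 in control mice 15, 16, 17 and 37. The highest mutant was again mouse 32 and the highest control again mouse 15. The difference was -0.71 with a standard error of 0.40 and a 95% confidence interval from -1.61 to 0.18, with an adjusted p of 0.648 in limma and p = 0.200 in the exact permutation test. It was -0.07 in male and -1.36 in female mice. Without Nd2-mutant mouse 35 it was -0.47, and without this mouse and control mouse 15 it was -0.26. The third probe, for transcript variant 1, was detected on 0 of 8 arrays.

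Il11 encodes interleukin 11, a gp130 ligand of fibroblasts and other stromal cells. Its intensities in Nd2-mutant mice 28, 32, 34 and 35 were 11.9, 62.3, 131.3 and 20.03. Those in control mice 15, 16, 17 and 37 were 56.3, 83.6, 72.4 and 48.3. The mutants thus held both the highest and the lowest value, and the 4 control mice lay between them. The means were 56.4 ± 54.6 and 65.2 ± 15.8 (SD, n = 4 each), and the difference was -0.46 with a 95% confidence interval from -1.44 to 0.53. The adjusted p was 0.763 in limma, and the exact permutation test gave p = 0.429. The direction was not the same in both sexes, with -1.01 in male and 0.09 in female mice. Without Nd2-mutant mouse 34 the difference was -0.90, without mouse 28 it was -0.10 and without mouse 35 it was -0.22. Across the 8 arrays, the log2 values of Il11 correlated with those of Il6 with Pearson's r = 0.72, and the Lif probes with r = 0.67 and 0.69. These values describe 8 shared arrays and include the strain difference.

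**Figure D2:**
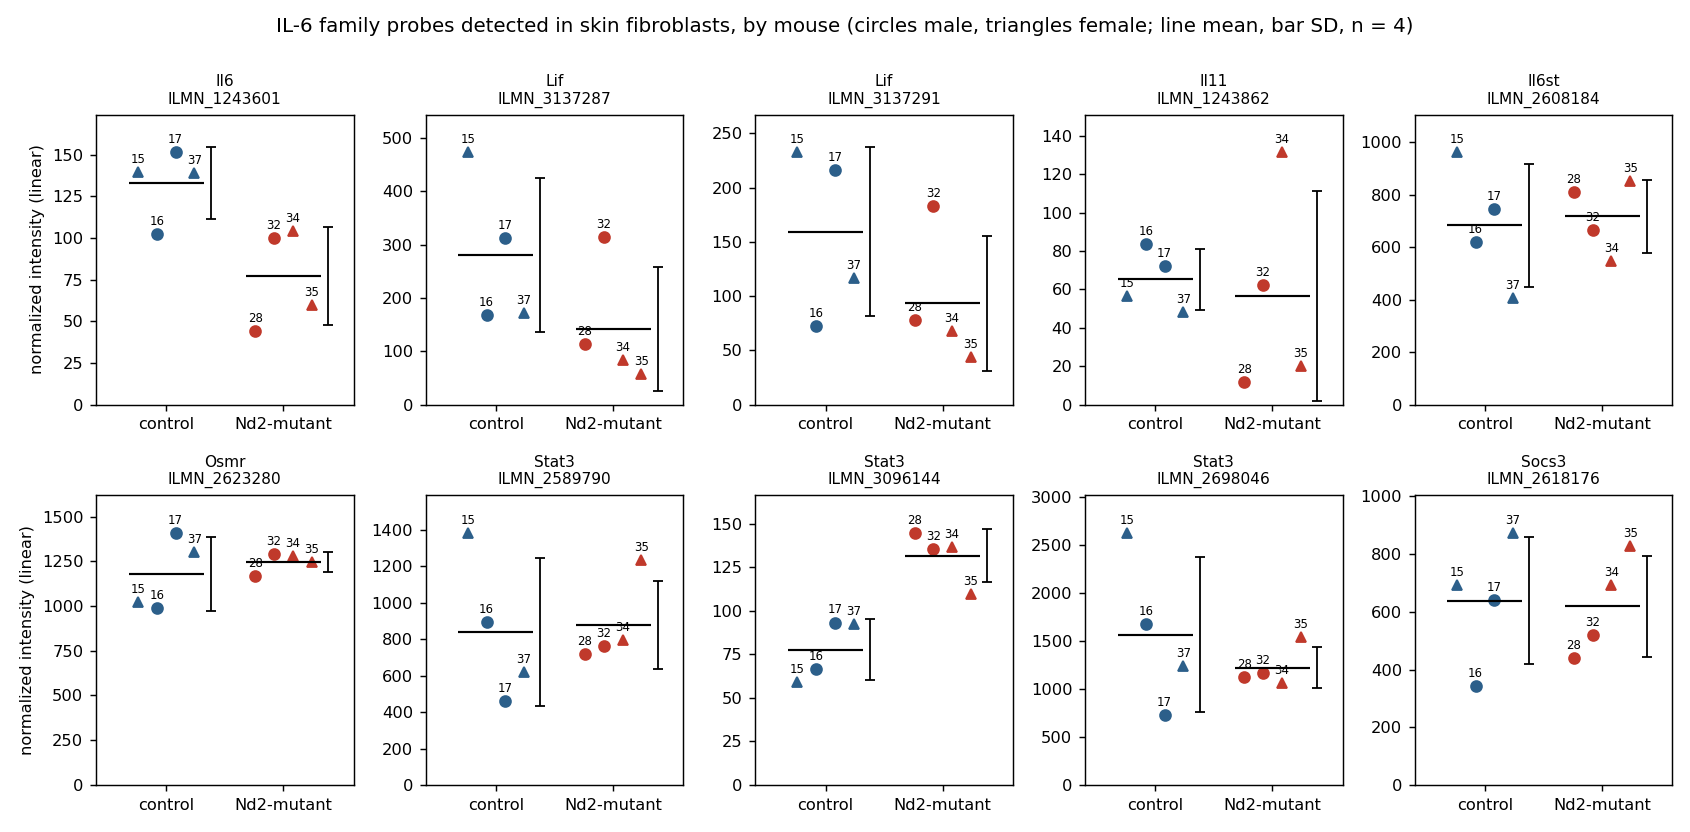
Normalized intensity of the 10 tested IL-6 family probes in each of the 8 mice, 1 point per mouse, on linear axes that start at 0, with circles for males, triangles for females, lines at the strain means and bars of 1 SD. The Il6 points of the strains meet only at Nd2-mutant mouse 34 (104.0) and control mouse 16 (102.1), and the points of Stat3 probe ILMN_3096144 do not meet (109.4 to 144.7 against 58.8 to 93.2).

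Clcf1 encodes cardiotrophin-like cytokine factor 1, a further gp130 ligand. Its 3 probes were near background. ILMN_1257971 had intensities of 7.82 to 11.3 in Nd2-mutant and 1.22 to 8.56 in control mice and was detected on 1 array. ILMN_2926729 was detected on 2 arrays, with 4.58 to 14.1 and 0.97 to 11.6. ILMN_1254497 was detected on 0 arrays. No level or difference of Clcf1 can be read from these values.

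Among the receptor chains, Il6st and Osmr were detected on all 8 arrays. Il6st, the gp130 chain, had intensities of 808, 663, 547 and 852 in Nd2-mutant mice 28, 32, 34 and 35 and of 961, 618, 746 and 404 in control mice 15, 16, 17 and 37. The control mice held both ends of the range, and the difference was 0.12 with a 95% confidence interval from -0.44 to 0.67 (adjusted p = 0.892 in limma). Osmr, the chain for oncostatin M, had intensities of 1168, 1292, 1277 and 1248 in Nd2-mutant mice 28, 32, 34 and 35. The control mice 15, 16, 17 and 37 had 1019, 990, 1409 and 1302. The mutants lay close together (1246 ± 55.2) inside the wider range of the control mice (1180 ± 208; SD, n = 4 each). The difference was 0.09 with a 95% confidence interval from -0.24 to 0.43 (adjusted p = 0.858 in limma), the narrowest interval of the member probes. These intervals bound the differences and do not show equal expression.

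Il6ra, the chain that binds IL-6, was near background. Its intensities were 15.9, 7.12, 8.37 and 10.5 in Nd2-mutant mice 28, 32, 34 and 35 and 6.55, 3.54, 5.40 and 6.98 in control mice 15, 16, 17 and 37. The strains did not overlap, but the probe was detected on 1 array, that of Nd2-mutant mouse 28, and it was not tested. The chain for LIF, Lifr, had 3 probes, of which ILMN_1242960 and ILMN_2829015 were detected on 0 arrays. ILMN_2829008 was detected on 1 array, that of Nd2-mutant mouse 35, with an intensity of 16.3. On these arrays the further chains for IL-6 and LIF, Il6ra and Lifr, were thus not measured above background in most mice of either strain.

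**Figure D3:**
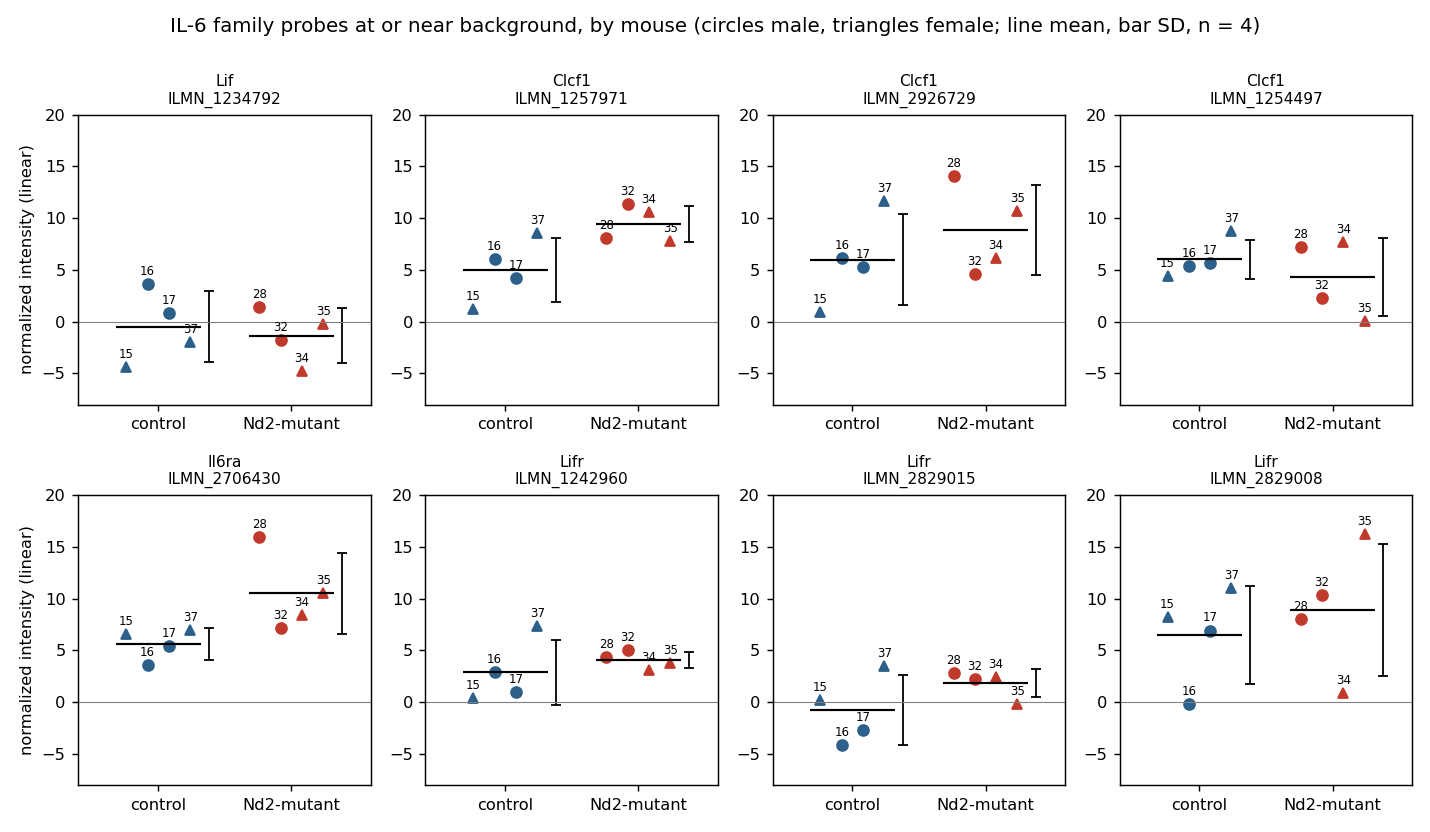
Normalized intensity (linear axis) in each of the 8 mice of the 8 IL-6 family probes that did not pass the detection filter. Circles are males and triangles females, lines are means and bars 1 SD. The Il6ra points lie at 7.12 to 15.9 in Nd2-mutant and 3.54 to 6.98 in control mice, and that of Nd2-mutant mouse 28, at the top, is the only one detected.

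Stat3 encodes the main transcription factor downstream of gp130, and its 3 probes did not share a direction. ILMN_3096144, annotated to transcript variant 3, had intensities of 144.7, 135.5, 136.7 and 109.4 in Nd2-mutant mice 28, 32, 34 and 35. It had 58.8, 66.3, 93.2 and 92.1 in control mice 15, 16, 17 and 37. Every mutant lay above every control mouse. The means were 132 ± 15.3 and 77.6 ± 17.6 (SD, n = 4 each). The difference was 0.67 with a standard error of 0.17 and a 95% confidence interval from 0.30 to 1.04. The exact permutation test gave p = 0.0286, the smallest it can give, and limma an unadjusted p of 0.00231 and an adjusted p of 0.639. Of all tested probes, 2.24% were likewise higher in the mutants without overlap, and 3.13% had a larger difference in either direction. The difference was 0.72 in male and 0.62 in female mice.

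Both other Stat3 probes, annotated to transcript variant 1, overlapped between the strains. ILMN_2589790 gave 718, 762, 795 and 1237 in Nd2-mutant mice 28, 32, 34 and 35 and 1385, 897, 459 and 618 in control mice 15, 16, 17 and 37. ILMN_2698046 gave 1123, 1159, 1062 and 1537 in these Nd2-mutant mice and 2623, 1669, 727 and 1236 in these control mice. On both probes the highest control was mouse 15, the highest mutant mouse 35 and the lowest control mouse 17. The differences were 0.15 (95% confidence interval -0.54 to 0.84, adjusted p = 0.889 in limma) and -0.22 (-0.94 to 0.50, adjusted p = 0.843 in limma). Within each mouse, the log2 value of the variant 3 probe minus the mean of the variant 1 probes was -2.51, -2.66, -2.61 and -3.48 in Nd2-mutant mice 28, 32, 34 and 35. It was -4.68, -3.91, -2.44 and -3.04 in control mice 15, 16, 17 and 37. This measure, chosen after the values were seen, overlapped between the strains (exact permutation test, p = 0.257). It holds each probe's own brightness, and the order of its values between mice is all that can be read from it. The array of control mouse 15 gave the lowest value.

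Socs3, a target of STAT3 and an inhibitor of gp130 signalling, gave 438, 518, 692 and 830 in Nd2-mutant mice 28, 32, 34 and 35 and 694, 344, 640 and 874 in control mice 15, 16, 17 and 37. The mutant values lay inside the range of the control mice. The difference was -0.01 with a standard error of 0.29 and a 95% confidence interval from -0.64 to 0.62 (adjusted p = 0.993 in limma; exact permutation test, p = 0.971). The interval is compatible with a change of either sign.

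The other genes of the pathway were taken from lists of 48 genes, of which 46 had a probe. No probe was found for Il31 and Cebpd. 41 probes of 31 genes were tested, 17 higher and 24 lower in Nd2-mutant fibroblasts, with a median difference of -0.11. With limma, 0 of them had an adjusted p under 0.05. 5 had an unadjusted p under 0.05 in limma, against 7.63% of all tested probes. All 5 were higher, against 4.5% of all tested probes in that direction. They were probes of Jak2, Hp and Bcl2l1 alone, with more than 1 probe for Jak2 and Hp. 3 did not overlap between the strains, against 4.37% of all tested probes. All 3 were higher, against 2.24%, and were probes of Jak2 and Bcl2l1. The Bcl2l1 probe passed the detection filter only through the Nd2-mutant mice.

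The kinases, STATs and adaptors had 9 tested probes of 6 genes, 6 higher and 3 lower, with a median of 0.11. Jak2 encodes a kinase bound to gp130 and other cytokine receptors. Its probe ILMN_1245579 gave 811, 767, 803 and 808 in Nd2-mutant mice 28, 32, 34 and 35 and 719, 402, 622 and 556 in control mice 15, 16, 17 and 37. Every mutant lay above every control mouse, and the difference was 0.49 with a standard error of 0.18 (adjusted p = 0.639 in limma; exact permutation test, p = 0.0286). Its probe ILMN_3115162, for another transcript variant, gave 273, 220, 334 and 303 in these Nd2-mutant mice and 206, 131, 206 and 186 in these control mice. The strains again did not overlap, with a difference of 0.60 and a standard error of 0.18 (adjusted p = 0.639 in limma; exact permutation test, p = 0.0286). The third Jak2 probe was detected on 0 arrays.

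Jak1, the kinase that gp130 signalling depends on most, had a difference of 0.31 (adjusted p = 0.689 in limma), which was 0.14 without Nd2-mutant mouse 35, 0.20 without control mouse 16 and 0.16 with array weights. Tyk2, a further kinase of the family, had a difference of -0.11 (adjusted p = 0.890 in limma).

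**Figure D4:**
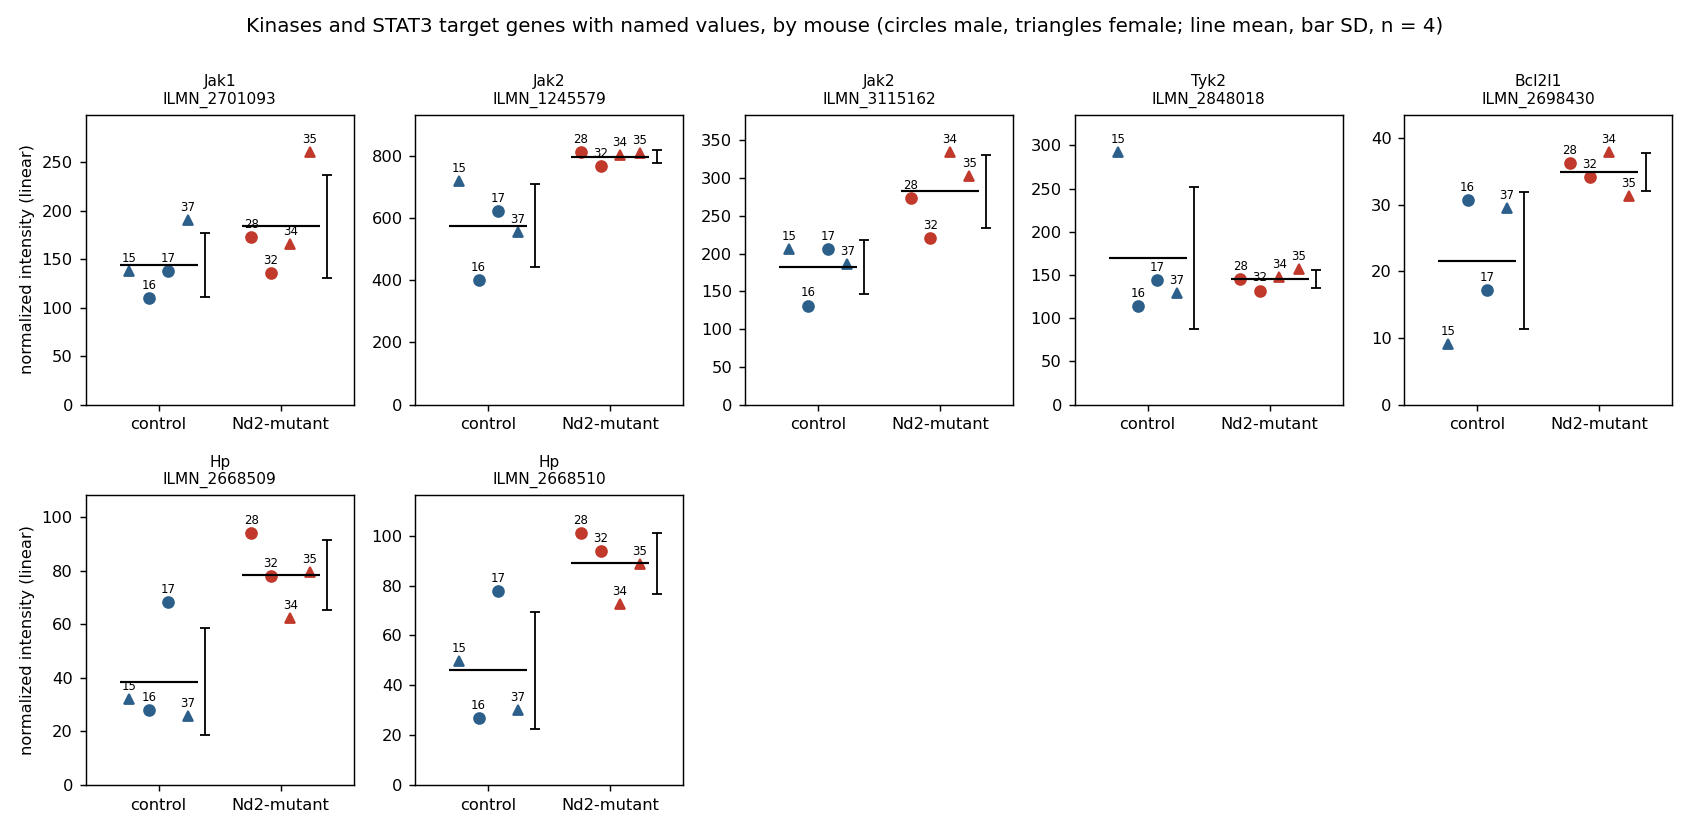
Normalized intensity (linear axes from 0) in each of the 8 mice of the named probes of the gp130 pathway outside the members, with circles for males, triangles for females, lines at the strain means and bars of 1 SD. The points of the strains do not meet for both Jak2 probes and for Bcl2l1, and they overlap for the other named probes.

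The STAT3 target genes had 20 tested probes of 14 genes, 8 higher and 12 lower, with a median of -0.11. Hp encodes haptoglobin, an acute-phase protein. Its probe ILMN_2668509 gave 94.3, 78.1, 62.4 and 79.5 in Nd2-mutant mice 28, 32, 34 and 35 and 31.9, 28.1, 68.4 and 25.9 in control mice 15, 16, 17 and 37. The strains overlapped through control mouse 17, which lay above Nd2-mutant mouse 34. The difference was 0.84 with a standard error of 0.23 (unadjusted p = 0.00353 and adjusted p = 0.639 in limma; exact permutation test, p = 0.0571). The probe ILMN_2668510 differed by 0.83 (adjusted p = 0.639 in limma). The third Hp probe, ILMN_2944824, was the brightest, with 272 to 376 in Nd2-mutant and 116 to 431 in control mice. Its strains overlapped, and it differed by 0.43 (unadjusted p = 0.201 in limma). Bcl2l1 encodes the survival protein Bcl-xL. Its probe ILMN_2698430 gave 36.3, 34.1, 37.9 and 31.3 in Nd2-mutant mice 28, 32, 34 and 35 and 9.12, 30.7, 17.2 and 29.5 in control mice 15, 16, 17 and 37. The strains did not overlap, but mutant mouse 35 (31.3) and control mouse 16 (30.7) nearly met. The difference was 0.48 (adjusted p = 0.639 in limma; exact permutation test, p = 0.0286). The probe was detected on all 4 Nd2-mutant arrays but on 3 of the 4 control arrays. Its unadjusted p in limma was 0.037, and it depended on the scale. It was 0.041 with 1 added before log2, 0.058 with 50 added and 0.087 on the linear scale. Without control mouse 15 the difference was 0.30. Both other Bcl2l1 probes failed the detection filter. Ccnd1, which encodes cyclin D1 and was picked out by its values, had 3 tested probes between -0.56 and -0.41 (unadjusted p of 0.0617 to 0.0961 in limma).

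The list of negative regulators had 7 tested probes of 6 genes, among them Socs2, Cish and Pias3. It also held Adam17, a protease that sheds the IL-6 receptor and is not an inhibitor of signalling as such. Of the 7 probes 2 were higher and 5 lower, with a median of -0.16 and a range from -0.35 to 0.29. With limma, 0 had an unadjusted p under 0.05, against 7.63% of all tested probes. Of the other family ligands, Ctf1 alone was tested (-0.08), and the probes of Osm, Cntf, Il27 and Ebi3 were detected on 0 arrays. Of the other receptors, Il11ra1, the chain for interleukin 11, was the only one tested (-0.14, adjusted p = 0.833 in limma).

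3 further secreted factors of senescent fibroblasts were set beside Il6. Cxcl1, which encodes a neutrophil-attracting chemokine, gave 1520, 3126, 1994 and 1669 in Nd2-mutant mice 28, 32, 34 and 35 and 4934, 1624, 3029 and 2865 in control mice 15, 16, 17 and 37. The strains overlapped, with a difference of -0.53 and a 95% confidence interval from -1.25 to 0.19 (adjusted p = 0.665 in limma). Ccl2, which encodes a monocyte-attracting chemokine, had a difference of 0.09, and Csf1, a growth factor of macrophages, one of -0.24 (adjusted p = 0.876 and 0.779 in limma). The 3 factors thus did not share a direction.

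**Figure D5:**
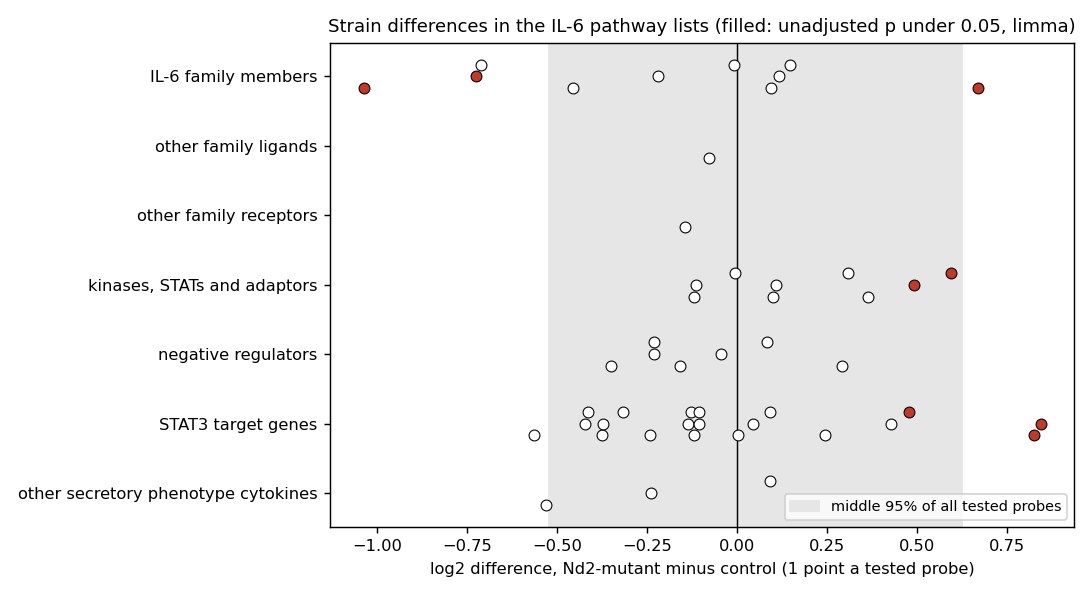
Difference between the strains for every tested probe of the members and the pathway lists, as Nd2-mutant minus control on the log2(intensity + 16) scale, with 1 point per probe in rows by list. Filled points have an unadjusted p under 0.05 in limma, and the shaded band holds the middle 95% of all tested probes. The medians of the lists outside the members run from -0.24 (3 probes of other secreted factors) to 0.11 (9 probes of kinases, STATs and adaptors). The 5 filled points of these lists, among 41 tested probes, are all on the higher side, against 4.5% of all tested probes. They belong to Jak2, Hp and Bcl2l1, and the Bcl2l1 probe passed the detection filter only through the Nd2-mutant mice.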

How the data were processed

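RNA of cultured skin fibroblasts was hybridised to Illumina MouseRef-8 BeadChips, 8 arrays in all, and the labels gave the strain, sex and number of each mouse. By the study's methods, the authors' intensity values were quantile normalized in GenomeStudio, with background subtraction where necessary, and the negative values show that it was subtracted here. They were deposited without a log transform, each with the authors' detection p-value against negative controls. 26.2% of the values were 0 or lower, and the sorted intensities of any pair of arrays differed by at most 0.147.

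Negative intensities were raised to 0 and log2(intensity + 16) was computed. Probes with a detection p-value under 0.01 on all 4 arrays of at least 1 strain were tested, 2-sided, by lmFit and eBayes of limma (version 3.58.1, R version 4.3.3), with Benjamini-Hochberg adjustment over all of them and a threshold of 0.05. An exact permutation test over the mice was run for each probe named. On simulated data with known changes, the fit recovered 6 of 70 probes at a log2 change of 0.5, 46 of 65 at 1 and 62 of 65 at 2, and it called 13 of 10214 unchanged ones. The number of arrays limits the precision.

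The members and lists were chosen with earlier results of these data known. Named were all member probes, pathway probes with an unadjusted p under 0.05 or without overlap between the strains, and Jak1, Jak2 and Tyk2 in any case. Some genes under this rule are not reported here, and the list counts leave them out. Promoters came from RefSeq (GRCm38.p6). Each probe was compared under 22 alternatives, 1 of which was added after the data were seen. Probe sequences and proteins were not used here.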

Additional observations from a re-analysis of the deposited data

How the results depend on the processing

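No member probe had an adjusted p under 0.05 in limma, or in the methods' t-test, under any alternative that gave a test. The lowest adjusted p of a member probe over these was 0.232, for Stat3 ILMN_3096144. 4 of the 10 tested member probes, Il6, both Lif probes and Stat3 ILMN_3096144, kept their direction under all 22 alternatives. On the log2 scale Il6 ranged from -0.87 to -0.54, Lif ILMN_3137287 from -1.47 to -0.47, Lif ILMN_3137291 from -1.05 to -0.26 and Stat3 ILMN_3096144 from 0.52 to 0.77, with each sex alone not counted. Member probes with an unadjusted p under 0.05 numbered 3, and 1 without control mouse 15 and Nd2-mutant mouse 35 together, an alternative added after seeing the data. Without a filter on detection, 18 member probes of 10 genes entered the test in place of 10 of 7. Over all 25697 probes, limma without the filter made 3 calls and gave 1587 unadjusted p under 0.05. Over the 10414 probes that passed the filter, limma made 0 calls and gave 795, and the methods' t-test made 1 call and gave 698.

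6 member probes and Tyk2 were reversed under at least 1 alternative. In female mice alone Il11 was 0.095. In male mice alone Socs3 was 0.020, Stat3 ILMN_2698046 0.048 and Tyk2 0.098. With array weights Osmr was -0.014, Stat3 ILMN_2698046 0.085 and Tyk2 0.067. Without control mouse 15 and Nd2-mutant mouse 35 together Tyk2 was 0.13. With each mouse left out in turn, Il6st ranged from -0.11 to 0.30, Stat3 ILMN_2589790 from -0.10 to 0.42, Stat3 ILMN_2698046 from -0.53 to 0.075, Socs3 from -0.27 to 0.16 and Tyk2 from -0.25 to 0.16. The cause was not tested.

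No paired analysis was possible because no mouse number occurs in both strains. Normexp with quantile normalization was not run, since both tables hold the same normalized values, and neither was a block for chip, since no chip is named. The comparison within each sex holds 2 mice a strain and is given without a test.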

Other observations

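The probes most like Il6 across the 8 arrays, by Pearson's r of log2 values over all tested probes of other genes, were Cfl2 (r = 0.968), Rgs16 (r = 0.937) and Phtf2 (r = 0.925). 15 probes had an r above 0.9. Cfl2 encodes an actin-binding cofilin, and Rgs16 a regulator of G protein signalling. The Cfl2 probe was dim, with 6.87 to 30.8 over the 8 arrays, and its lowest values were near background. Rgs16 gave 236, 624, 869 and 540 in Nd2-mutant mice 28, 32, 34 and 35 and 1078, 618, 1016 and 995 in control mice 15, 16, 17 and 37, so that Nd2-mutant mouse 28 was the lowest in both genes. The probes most like Socs3 were Zscan21 (r = 0.977), 1700021K19Rik (r = 0.957) and Zfp41 (r = 0.949), and 18 probes had an r above 0.9. Zscan21 was likewise dim, with 8.29 to 23.2. These correlations describe the same 8 arrays from which the probes were picked.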
